A study of Caenorhabditis elegans with 2 samples.

Results

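The genes described here are the 6 Hox genes of Caenorhabditis elegans and 4 genes for Pbx and Meis cofactors, 10 of 19985 annotated protein-coding genes. They were chosen by name: the Hox genes ceh-13, lin-39, mab-5, egl-5, php-3 and nob-1, the Pbx genes ceh-20, ceh-40 and ceh-60, and unc-62, the 1 Meis gene of this set. The study mapped NHR-25 by ChIP-seq, in which DNA bound by a protein is precipitated and sequenced, in whole hermaphrodites of the last larval stage, L4. There was 1 group with 2 biological replicates. Strain OP33 carries unc-119(ed3) on chromosome III and the integrated transgene wgIs33, from which NHR-25 is made with a C-terminal GFP and FLAG tag, and GFP was the target of the antibody. The promoter that drives the transgene is not given in the labels, the strain is 1 line, and whole worms mix all tissues, so no peak can be placed in a cell type.

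Hox genes encode homeodomain transcription factors that give cells along the body axis their regional identity. Pbx and Meis proteins are homeodomain partners of the TALE class that bind DNA with Hox proteins and with each other. NHR-25 belongs to the NR5A nuclear receptors, whose fly member FTZ-F1 is known as a partner of the Hox-derived protein Fushi tarazu. In C. elegans, lin-39, ceh-20 and unc-62 act in the cells that form the vulva, and nhr-25 is needed in the epidermis and vulva.

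A summit, the highest point of a peak, was counted for a gene when it lay inside the gene or within 5 kb upstream of its 5′-most annotated start. The 4 deposited peak lists were read, all on genome build ce11. The thresholded list held 1826 peaks, which were the pooled peaks of highest signal (30.3 to 1021, median 41.2). The pooled list held 30000 peaks (from 4.12 to 1021, median 8.04), replicate 1 had 23929 (median 4.18) and replicate 2 had 30000 (median 5.47). Signal is the authors' value for each peak on a scale that is not stated, so signals are compared only within a list. Read depth is unknown, and the pooled and replicate lists also hold weak entries that need not be binding sites.

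Sequences at strong cofactor summits and at the strongest Hox summit are shown first, because most of the results concern these places. They are on the plus strand of the genome, from the RefSeq sequence of WBcel235, which is ce11. Capitals mark matches to GAGAGAG on either strand (CTCTCTC when read on the plus strand) at unc-62, and matches to TGATNNAT and TAATTA at ceh-13. The ceh-20 sequence, which matched none of the 9 motifs searched, has no capitals. It spans 100 bp on each side of the only thresholded summit of ceh-20, as the ceh-13 sequence does for the highest Hox summit. The unc-62 stretches are shortened so that they hold no more than 30 bp of annotated untranslated sequence.
ceh-20 upstream, chrIII:6979067-6979267: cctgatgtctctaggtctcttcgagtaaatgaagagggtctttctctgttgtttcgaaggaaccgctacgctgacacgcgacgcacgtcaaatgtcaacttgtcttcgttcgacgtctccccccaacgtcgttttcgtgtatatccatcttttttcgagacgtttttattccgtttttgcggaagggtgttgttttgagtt
unc-62 at 10440 bp into the gene, chrV:4507886-4507915: CTCTCTCTCcatctattccttctctccaag
unc-62 at 6398 bp into the gene, chrV:4503759-4503956: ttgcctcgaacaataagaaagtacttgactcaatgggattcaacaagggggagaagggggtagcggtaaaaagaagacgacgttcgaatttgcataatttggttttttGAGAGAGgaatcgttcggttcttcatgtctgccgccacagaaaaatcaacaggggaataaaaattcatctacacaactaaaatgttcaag
ceh-13 intron, chrIII:7556553-7556753: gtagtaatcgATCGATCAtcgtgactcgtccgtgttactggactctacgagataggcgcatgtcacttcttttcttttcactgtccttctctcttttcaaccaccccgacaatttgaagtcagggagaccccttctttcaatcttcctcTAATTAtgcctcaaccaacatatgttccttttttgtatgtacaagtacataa

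Peaks past the threshold were found at a Pbx gene and at the Meis gene of this set, and at no Hox gene. Of the 10 genes, 2 had a thresholded summit, ceh-20 and unc-62, with 1 summit each. Among all protein-coding genes the share was 13.1%, and among genes whose window was longer than the median of 7026 bp it was 15.7%. A count of 2 in 10 does not set these genes apart from that background. None of the 6 Hox genes and 2 of the 4 cofactor genes were in this count. In the pooled list, 8 of the 10 genes had a summit, against 65% of all genes. In the lists of both replicates, 8 of 10 had a summit, against 57.2% of all genes. These shares are near the background.

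**Figure D1:**
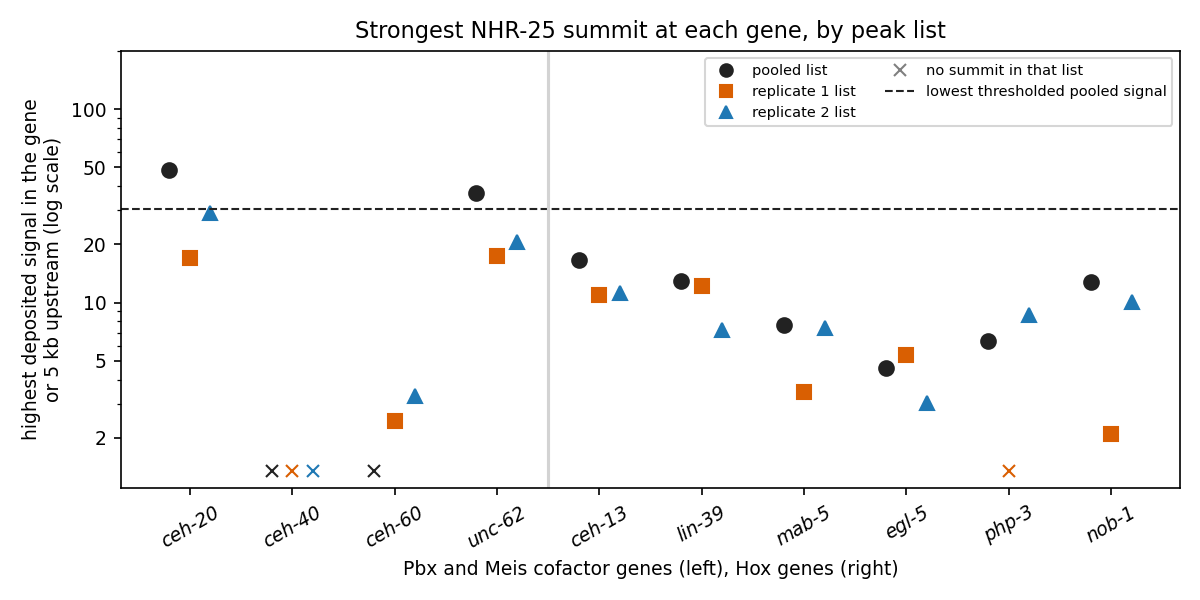
Highest deposited signal (log scale) at each of the 4 cofactor genes and 6 Hox genes in the pooled list (black circles), replicate 1 (orange squares) and replicate 2 (blue triangles), with a cross where a list has no summit and a dashed line at the lowest thresholded signal of 30.3, which applies to the pooled list. Only ceh-20 at 48.6 and unc-62 at 37.0 lie above the line, and ceh-40 has no summit in any list.

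The Pbx gene ceh-20 (WBGene00000443, chromosome III, 6979884 to 6981785, plus strand) had the strongest summit of the 10 genes. CEH-20 is the worm counterpart of fly Extradenticle. Its thresholded summit, at 6979167, lay 717 bp upstream of the gene with a pooled signal of 48.6, ranked 618 of 30000. The strongest overlapping peak had a signal of 17.05 in replicate 1, ranked 1064, and 29.2 in replicate 2, ranked 747. Both replicates thus listed a peak here, which adds no support, because the summit is described for having passed the threshold. The position varied a little: replicate 1 had summits 895 bp and 687 bp upstream, and replicate 2 had 1 summit 706 bp upstream. The replicate 1 signals were 17.05, ranked 1064, and 11.1, ranked 2568, the latter from the summit nearer to the pooled one. Of all protein-coding genes, 5.01% had a pooled signal at least as high in their window. No other gene's body held this summit.

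Inside ceh-20 and farther upstream, 5 weaker pooled summits had signals of 5.26 to 13.6. The highest of these lay 1495 bp into the gene, in a coding exon, and overlapped peaks of 3.55 in replicate 1 and 7.82 in replicate 2. Its nearest 5′ end was that of F31E3.6, at 702 bp. The summit 1143 bp into ceh-20 was also nearest to F31E3.6, at 1054 bp. The one 4684 bp upstream lay inside F31E3.2, 857 bp from a 5′ end of that gene. In all, 3 of the 6 pooled peaks of ceh-20 overlapped peaks of both replicates, and the 6 peaks merged into 4 separate regions. A far stronger peak lay outside the window. Its signal was 97.2, its rank 87, and its summit was 7804 bp upstream of ceh-20 but 173 bp from a 5′ end of rfc-4, a gene for a subunit of the replication factor C clamp loader.

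The Meis gene unc-62 (WBGene00006796, chromosome V, 4497461 to 4511449, plus strand), counterpart of fly Homothorax, had the most summits of the 10 genes. Its window of 18989 bp held 18 pooled summits, in 14 separate regions once overlapping peaks were merged. Replicate 1 had 9 summits there and replicate 2 had 19. A window with 18 or more pooled summits was found at 94 genes, 0.470% of all. The window is long, and per kb the density of 0.948 was reached or exceeded by 5.54% of genes. For ceh-20, with 0.869 per kb, that share was 7.37%.

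**Figure D2:**
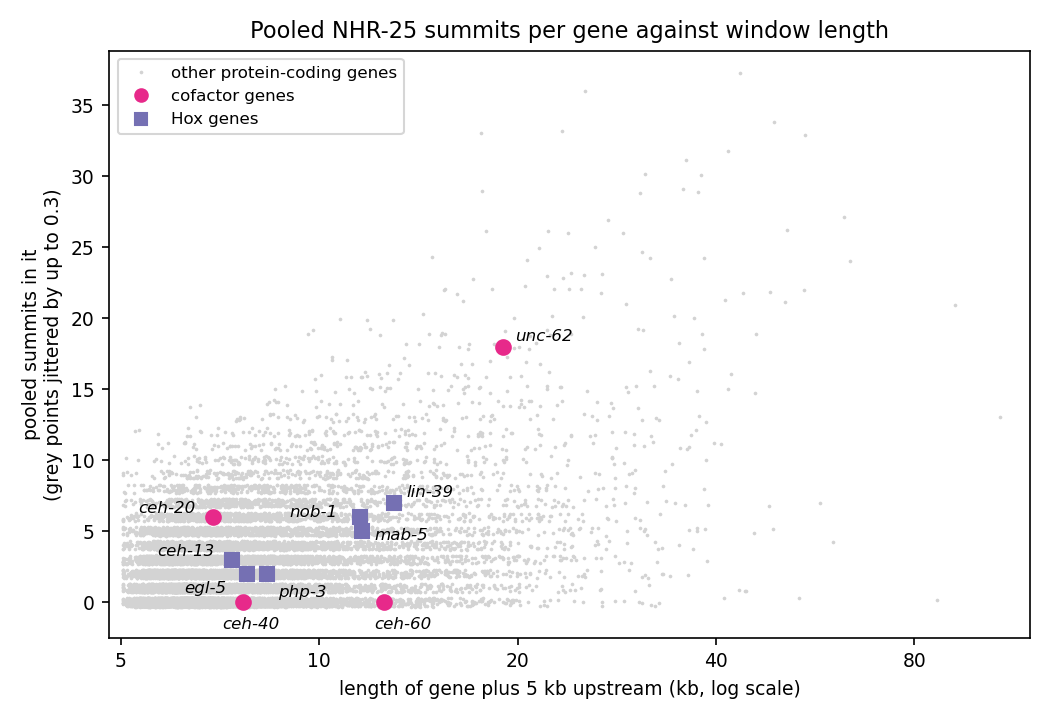
Pooled summits per gene (vertical axis) against the length of the gene plus 5 kb upstream (kb, log scale) for all protein-coding genes (grey), cofactor genes (pink circles) and Hox genes (purple squares). The gene unc-62 stands at 18 summits in 18989 bp, ceh-20 at 6 in 6902 bp, and ceh-40 and ceh-60 at 0.

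The unc-62 summits are described by their distance to its many annotated starts, and the strongest were inside the gene. The annotation gives this gene 18 transcripts with 15 distinct 5′ ends, and 11 of the 18 summits lay within 500 bp of one of them. With so many starts, much of the window is close to one. The share over all pooled summits was not computed, so the count does not set unc-62 apart. In the Hox genes, which have fewer annotated starts, 4 of 23 summits did, and in ceh-20 1 of 6. Upstream of the 5′-most start, 4 summits had pooled signals of 5.00 to 7.18, while the 5 strongest, from 16.6 to 37.0, were all inside the gene. They fell at 3 places.

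The thresholded summit, at 4507901, was 10440 bp into the gene with a pooled signal of 37.0 and rank 1192. Replicate 1 had a summit 10431 bp into the gene with a signal of 17.4, ranked 1011, and replicate 2 had one at 10540 bp with 18.1, ranked 2181. For 17 of the 18 transcripts this position is intronic. For the other one it lies in an untranslated exon, 697 bp past that transcript's own start at 4507204. A neighbouring summit at 4508107 had 16.6. A higher or equal pooled signal was found in the windows of 9.33% of genes.

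The next place missed the threshold narrowly in the pooled list. Its summit at 4499344 had a signal of 28.7 and rank 2031, and lay 14 bp past an annotated 5′ end at 4499330. The strongest overlapping peak had 8.86 in replicate 1, ranked 3839, and 20.6 in replicate 2, ranked 1672. This was the strongest unc-62 peak of replicate 2, whereas in replicate 1 the strongest was the one at 10431 bp. A second summit at 4499546 had 18.7. At the last of the 3 places, the summit at 4503859 lay 102 bp before the 5′ end at 4503961, with a pooled signal of 21.8, and overlapped peaks of 8.64 in replicate 1 and 10.8 in replicate 2. All 3 places were thus found in each replicate, in a different order of strength.

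**Figure D3:**
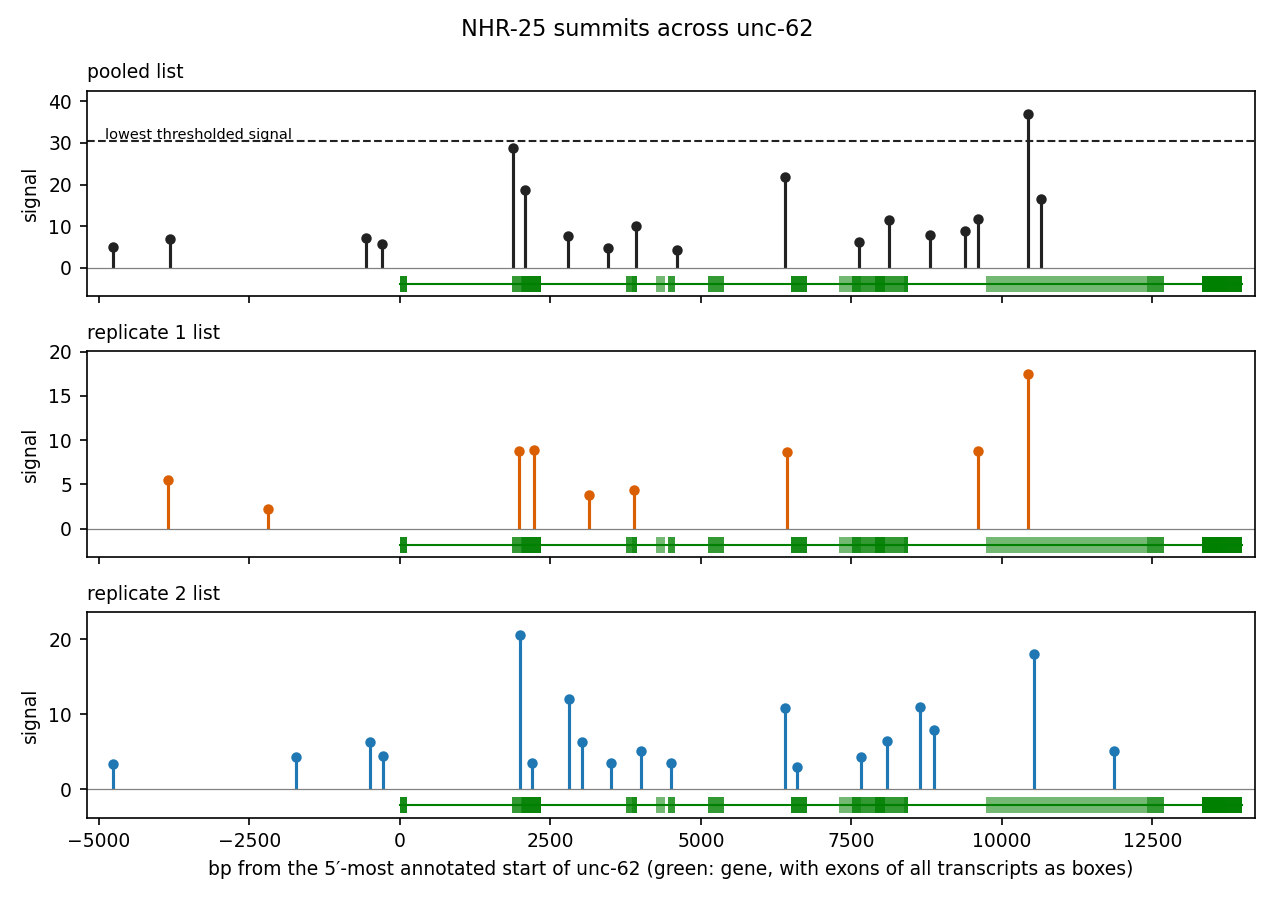
Summits of the pooled, replicate 1 and replicate 2 lists across unc-62 (horizontal axis: bp from its 5′-most start; vertical axis: deposited signal, with its own scale in each panel; green: the gene with exons of all transcripts as boxes). The tallest pooled summits are at 10440, 1883 and 6398 bp with signals of 37.0, 28.7 and 21.8, and only the first is above the dashed line at 30.3.

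Replicate support varied along unc-62. Of its 18 pooled peaks, 8 overlapped peaks of both replicates (44.4%, Wilson 95% interval 24.6% to 66.3%), 11 overlapped replicate 1 and 15 replicate 2. Such intervals cover counting error only, and neighbouring peaks that overlap the same replicate peak are not independent. By annotation, 4 summits were upstream, 7 intronic, 2 in coding exons and 5 in untranslated exons of at least 1 transcript.

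The other Pbx genes were nearly or wholly without summits. For ceh-40 (WBGene00000461, chromosome X, 12318126 to 12320777), a close relative of ceh-20, none of the lists had a summit in a window of 7652 bp, and the nearest thresholded summit was 42442 bp from the gene. This is not rare: 16.7% of all genes, and 13.2% of the 2731 on chromosome X, had none in the pooled and replicate lists. The gene ceh-60 (WBGene00017690, chromosome X, 6522596 to 6530146) acts with unc-62 in the control of yolk protein genes in the intestine. It had no pooled summit in 12551 bp. Replicate 1 had 1 summit of 2.43, 1182 bp into the gene, and replicate 2 had 1 of 3.30, 3969 bp into it, so the replicates did not mark the same place. Its nearest thresholded summit, with a signal of 32.1, was 7141 bp away on the downstream side and nearest to ttr-35. The lists begin at signals of 4.12 (pooled), 2.00 (replicate 1) and 2.74 (replicate 2), so weaker binding would not be listed.

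All 6 Hox genes are on chromosome III, and each had pooled summits, none of which reached the threshold. Together they had 23 distinct pooled summits with signals from 4.38 to 16.7 and a median of 6.73, against a median of 8.04 over all pooled peaks. The 24 cofactor summits, all from ceh-20 and unc-62, had a median of 8.82. Above the pooled median were 6 of 23 Hox summits and 13 of 24 cofactor summits. In each replicate the highest signals of ceh-20 (17.05 in replicate 1 and 29.2 in replicate 2) and unc-62 (17.4 in replicate 1 and 20.6 in replicate 2) were above those of every Hox gene, whose highest were 12.2 in replicate 1 and 11.2 in replicate 2. These 2 genes stand out by their pooled signal, and the pooled list covers both replicates, so the order in each replicate adds no support. The other cofactor genes were below the Hox maxima: ceh-60 had 2.43 in replicate 1 and 3.30 in replicate 2, and ceh-40 had no summit. With 2 replicates of 1 group this order is a description.

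The anterior Hox gene ceh-13 (WBGene00000437, 7555660 to 7558041, plus strand), the labial counterpart, had the highest Hox signal, 16.7 at rank 5213. That summit was 993 bp into the gene, in an intron. The strongest overlapping peak had 2.70 in replicate 1 and 11.2 in replicate 2. Replicate 1 had its own strongest ceh-13 peak elsewhere, 724 bp upstream with 10.9, which overlapped a pooled peak of 6.46 and no peak of replicate 2. The highest signals of the 2 replicates thus came from different places, at rank 2684 in replicate 1 and rank 5068 in replicate 2. The remaining pooled summit, 1608 bp upstream with 8.93, overlapped peaks of 3.14 in replicate 1 and 6.32 in replicate 2.

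The midbody Hox gene lin-39 (WBGene00003024, 7528641 to 7536632, minus strand), which keeps vulval precursor cells from fusing with the epidermis, had 7 pooled summits. Its strongest, 13.0 and 12.2, flanked an internal 5′ end at 7534805, 90 bp past it and 151 bp before it. The highest overlapping peak there had 12.2 in replicate 1, ranked 2121, and 6.44 in replicate 2, ranked 12028. Of the 7 peaks, 4 overlapped both replicates, the largest number in a Hox gene. Upstream of the gene, a summit at 1547 bp had 8.86, with 5.15 in replicate 1 and 7.18 in replicate 2.

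In mab-5 and egl-5, which pattern the posterior body, the replicates marked different places. For mab-5 (WBGene00003102, 7776835 to 7783454, minus strand) the highest of 5 pooled signals was 7.64, 1383 bp into the gene. That peak overlapped none of replicate 1. In replicate 2 the closest summit was 1397 bp into the gene, with 3.84. A replicate 2 peak of 7.42 also overlapped it, but with its summit at 1623 bp, the place of a neighbouring pooled summit of 6.73. No mab-5 peak overlapped both replicates, and 1, at 7781041 with 4.45, overlapped neither. For egl-5 (WBGene00001174, 7814374 to 7817141, plus strand), an Abdominal-B type gene, the 2 pooled summits had only 4.59 and 4.54. Both overlapped replicate 1 peaks, of 2.12 and 5.37, and none of replicate 2. The highest pooled signal of egl-5 was therefore the lowest such value of the 8 genes with a summit, and 63.4% of all genes had a higher or equal one.

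The posterior pair nob-1 and php-3 lie next to each other and share summits. For nob-1 (WBGene00003779, 12077793 to 12084316, minus strand) 6 pooled summits were found. The highest, 12.8 at 4407 bp upstream, matched a peak of 10.03 in replicate 2 and none in replicate 1. All 6 overlapped replicate 2 and 1 overlapped replicate 1, whose only nob-1 peak had a signal of 2.10. For php-3 (WBGene00004024, 12074218 to 12077556, minus strand) the 2 pooled summits, 6.31 and 5.31, were upstream of it and inside nob-1, and are counted once in the total of 23. Replicate 1 had no summit for php-3, while replicate 2 had 3 with signals up to 8.64. At this locus the listed replicate peaks were thus almost all of replicate 2.

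**Figure D4:**
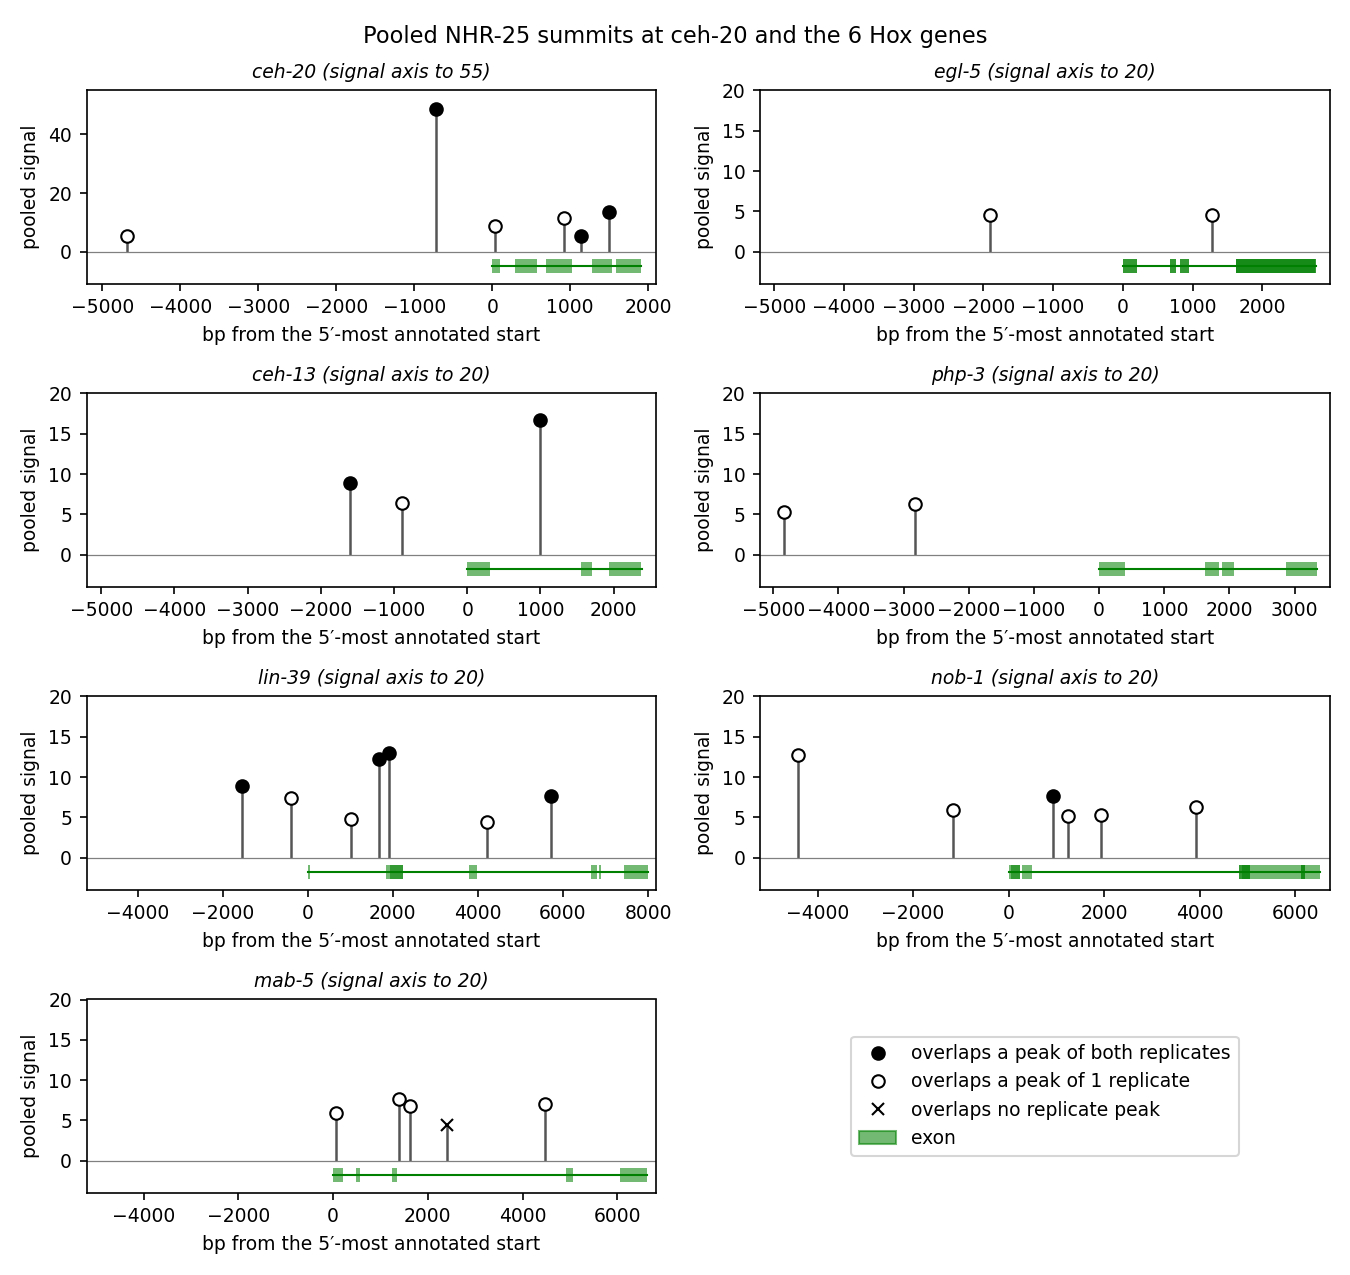
Pooled summits at ceh-20 and the 6 Hox genes (horizontal axis: bp from the 5′-most start, exons in green; vertical axis: pooled signal, to 55 for ceh-20 and to 20 for the Hox genes). Filled circles overlap a peak of both replicates, open circles 1 replicate, and the cross neither: 7 of the 23 Hox summits and 3 of the 6 ceh-20 summits are filled, and the ceh-20 summit of 48.6 is the only one above 17.

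Over the 10 genes, 18 of 47 distinct pooled peaks (38.3%, Wilson 95% interval 25.8% to 52.6%) overlapped peaks of both replicates by at least 1 bp, against 43.03% of all pooled peaks. The Hox genes had 7 of 23 (30.4%, 15.6% to 50.9%) and the cofactor genes 11 of 24 (45.8%, 27.9% to 64.9%). Both intervals include the share of all pooled peaks. When at least 50% of the pooled peak had to be covered, the count over the 10 genes was 10. The share of all pooled peaks under that rule was not computed, so this drop does not set the genes apart.

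No Hox gene had a thresholded summit close by. The nearest was 7781 bp from lin-39 (38.7, on its downstream side and nearest to cux-7) and 12461 bp from ceh-13 (50.9). For mab-5, egl-5, php-3 and nob-1 the distances were 46956, 37558, 56005 and 58276 bp. At the edge of the 5 kb reach, the outermost pooled summits counted were those of php-3 at 4831 bp, unc-62 at 4757 bp, ceh-20 at 4684 bp and nob-1 at 4407 bp, with signals of 5.31, 5.00, 5.42 and 12.8. The first left out lay at 5045 bp for unc-62 (4.28), at 5514 bp for php-3 (5.16, inside nob-1) and at 5982 bp for lin-39 (5.21).

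Motifs of the NR5A type were about as rare at these summits as over the pooled list. For each motif, both strands were read from 100 bp before to 100 bp after each of the 47 pooled summits. TCAAGGTCA was at 0 of 47 and the shorter CAAGGNC at 2 (4.26%), 1 in mab-5 and 1 in unc-62. These shares compare with 0.270% and 4.58% of all pooled summits and 0.931% and 10.8% of all thresholded summits. The half-site AGGTCA, which the first motif contains, was at 0 of 47, against 6.91% of pooled and 12.4% of thresholded summits. With 200 bp on each side searched, AGGTCA was at 6 of 47 (12.8%), against 12.3% of pooled summits, so its absence at the narrower width does not set these summits apart.

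Sequences of the kind bound by Hox and TALE proteins were present at weak and stronger summits. TGATNNAT, of the Pbx-Hox type, was at 13 of 47 summits (27.7%: 7 Hox, 5 unc-62 and 1 ceh-20), against 15.2% of pooled and 10.8% of thresholded summits. TAATTA, the homeodomain core, was at 7 (14.9%), against 9.19% of pooled and 4.98% of thresholded summits. Both were at the ceh-13 intron summit, where the capitals in its sequence above show them starting 90 bp to the left and 49 bp to the right of the summit. They were also together at a weak lin-39 summit of 4.38 and a weak unc-62 summit of 5.00. The Meis type TGACAG was at 3 (6.38%), against 7.18% of pooled and 8.43% of thresholded summits. Above the pooled median signal of 8.04 were 7 of the 13 summits with TGATNNAT, 4 of the 7 with TAATTA and 2 of the 3 with TGACAG, against 19 of all 47. With 50 bp on each side, TGATNNAT was at 5 of 47 (10.6%), against 7.66% of pooled summits, and TAATTA at 2 (4.26%), against 4.36%. Neither TGATNNAT nor TAATTA nor TGACAG was at the thresholded summits of ceh-20 and unc-62.

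Repeats of GA were at strong summits of unc-62 and at weak summits of the Hox genes. GAGAGAG was at 11 of 47 summits (23.4%: 7 Hox and 4 unc-62), against 6.77% of pooled and 20.6% of thresholded summits. In unc-62 it was at 4 of the 5 strongest summits, with signals of 16.6 to 37.0, and at 0 of the other 13, with 4.22 to 11.7. The 7 Hox summits with it had signals of 4.38 to 7.62, and 0 of them were above the pooled median. The split of unc-62 by strength was made after the values were seen. In the unc-62 sequences above, the repeat starts 15 bp to the left of the summit of 37.0 and 8 bp to the right of the summit of 21.8. The remaining motifs were rare: GAGACGCAG, which resembles sites of the zinc-finger factor EOR-1, at 1 summit of unc-62 (12.2% of thresholded and 2.91% of pooled summits), and the E-box CACGTG at 1 of nob-1 (8.38% and 4.20%). A match is only a stretch of letters, and members' summits had a median GC content of 39.8%, against 36.8% for pooled and 43.8% for thresholded summits.

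Of 13 genes listed as regulators of Hox genes, 3 had a thresholded summit (23.1%), against 13.1% of all genes. Each of the 13 has a window longer than the median, and among such genes the share was 15.7%. A count of 3 in 13 does not set the list apart from that background. The 3 genes were sor-1, sor-3 and sop-2, and without replicate 1 they were sor-1, sor-3 and mes-3. The gene sor-1 had a pooled signal of 54.9 at 344 bp upstream, with 20.9 in replicate 1 and 38.8 in replicate 2. At sor-3 it was 48.1 at 226 bp upstream, with 22.7 in replicate 1 and 24.6 in replicate 2. At sop-2 it was 35.3 at 583 bp upstream, with 18.3 in replicate 1 and 17.4 in replicate 2. All 3 genes keep Hox genes silent outside their domains. All 3 summits were in both replicates, which adds no support. The thresholded peaks were those of highest signal in the pooled list, which covers both replicates. The Polycomb repressive complex genes mes-6, mes-3 and mes-2 had pooled signals of 26.9, 24.7 and 19.4, under the threshold. A pooled summit was found at 12 of the 13, against 65% of all genes, the exception being vab-7, the even-skipped counterpart. The pooled share among genes with longer windows was not computed, so this count does not set the list apart.

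Among 12 genes listed as targets of Hox proteins, 1 had a thresholded summit (8.33%), against 13.1% of all genes, and 9 had a pooled one, against 65%. It was egl-17, which encodes a fibroblast growth factor made by vulval cells. Its summit was 161 bp into the gene in a coding exon, with a pooled signal of 33.8, and 16.6 in replicate 1 and 22.0 in replicate 2. The highest pooled signal of the list under the threshold was 21.7, at mab-20. The GATA factor genes egl-18 and elt-6, which lie next to each other, shared a summit of 20.2. The yolk protein gene vit-2 had 15.7 and vit-6 none. Of 8 other TALE or homeodomain genes listed, 0 had a thresholded summit, against 13.1% of all genes, and 4 had a pooled one, against 65%. The highest pooled signals were 13.4 at ceh-43, 12.5 at irx-1, 11.3 at pal-1 and 6.44 at ceh-12. The genes vab-7, psa-3 and pal-1 are in more than 1 of these lists.

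The genes most like ceh-20 and unc-62 in their highest signals were sought among 10703 genes with a summit in the pooled and both replicate lists, by the distance of the 3 log2 signals. For ceh-20 the closest was F31E3.6 at a distance of 0, because the ceh-20 peak also lies within 5 kb of that gene, which follows ceh-20 on the same strand. Next was C44H4.4 at 0.0431, with 49.6 in the pooled list, 17.4 in replicate 1 and 29.4 in replicate 2. For unc-62 the closest were osgn-1 at 0.0166 (37.2 pooled, 17.4 in replicate 1 and 20.4 in replicate 2) and Y66D12A.11 at 0.0446 (37.3 pooled, 16.9 in replicate 1 and 20.4 in replicate 2).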

How the data were processed

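NHR-25 ChIP-seq was deposited as peak lists for 2 biological replicates of 1 group. Per the labels' file names, the replicate and pooled lists were input to the irreproducible discovery rate procedure and the thresholded list is its output. Per the deposited text records, these lists derive from the replicate alignments and 1 further file that is not described there. The labels name a possible control experiment. The aligner, peak caller and threshold were not given in the sources used here. Only the 4 ce11 lists were read; the ce10 lists and control data were not used here. The signal of each peak is the authors' deposited value, on a scale that is not stated. The deposited −log10 q-value was read and not used to rank peaks. Summits are the deposited start plus the deposited summit offset, printed counting from 1.

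Genes came from Ensembl release 115 (WBcel235). Python 3.11.15 with pandas 2.3.3, numpy 2.4.6 and scipy 1.17.1 placed summits in genes or 5 kb upstream, ranked peaks by signal and counted replicate overlap of at least 1 bp. Within 100 bp of summits, 9 motifs were searched. The counting steps were tested on simulated data. Members, the 3 gene lists and the motifs were chosen with earlier results of these data known, so no test was made on them. Named genes are the members, genes at their thresholded summits, up to 4 listed genes with a thresholded summit per list and the 2 most similar genes of each bound member. Other genes of the lists, and rfc-4, cux-7, ttr-35 and F31E3.2, were named after their values were seen. Alternatives covered reach, assignment, threshold, each replicate alone, overlap and search width. The sequence at 1 further unc-62 summit is not reported here. Depth is unknown, so no floor is given.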

Additional observations from a re-analysis of the deposited data

How the results depend on the processing

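The count of 2 genes with a thresholded summit, ceh-20 and unc-62, was the same with 1, 2 or 10 kb upstream, 1 kb downstream added, any overlap of the peak, the nearest 5′ end within 2 kb, and with the 1826 strongest peaks of either replicate. It was 1 gene with 1 summit in the gene body alone (unc-62), because the ceh-20 summit is upstream. Among thresholded peaks above the median of the thresholded list, 41.2, it was 1 gene with 1 summit (ceh-20). Leaving out either replicate gave 2 genes and 2 summits each time. The background share was 7.12% with 1 kb, 19.1% with 10 kb, 2.33% in the gene body and 15.7% for longer windows. With 10 kb the strongest ceh-20 signal was 97.2 and that of php-3 7.70, from summits nearer to other genes. Replicate support fell to 10 of 47 peaks when at least 50% of the peak had to be covered. The matching share of all pooled peaks was not computed. Hox regulators with a summit numbered 3 to 4, and Hox targets 1 to 2, with one replicate left out. The second target, without replicate 2, was egl-18. Without replicate 1, mes-3 took the place of sop-2. Counts of motifs changed with the search width, for TGATNNAT to 5 of 47 with 50 bp (10.6%, against 7.66% of all pooled summits) and 20 with 200 bp (42.6%, against 28.9%). No paired analysis was possible because there is 1 group. Unknown depth and 2 replicates limit what a missing peak shows.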

Other observations

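The stretches between neighbouring Hox genes held no thresholded summit where the genes are paired. Between lin-39 and ceh-13, 19027 bp with no other protein-coding gene held 7 pooled summits with signals up to 8.93, or 0.368 per kb, against 0.365 per kb over chromosome III. Between mab-5 and egl-5, 30919 bp with 1 other protein-coding gene held 3, up to 7.78, or 0.0970 per kb. Replicate 1 had 6 summits there, up to 5.37, and replicate 2 had 4, up to 5.63. The 218793 bp between ceh-13 and mab-5, with 38 other protein-coding genes, held 6 thresholded and 124 pooled summits, up to 74.8.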
